A study of Mus musculus with 661 samples.

Results

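Interleukin-1 reaches a cell through a small set of receptors and inhibitors, and 8 genes of that set were followed here: the signalling receptor Il1r1, its accessory chain Il1rap, the decoy receptor Il1r2, the receptor antagonist Il1rn, the inhibitory receptor Sigirr, the receptor Il1rl1 with its ligand Il33, and the ligand Il18. They were chosen by symbol, and all 8 were present among the 45771 nuclear genes of the count table. When interleukin-1α or interleukin-1β binds Il1r1, the accessory chain joins the complex and the adaptor Myd88 starts a kinase cascade that ends in NF-κB. Il1rn binds the same receptor without starting the signal, Il1r2 captures the ligand on a protein that lacks the signalling domain, and Sigirr dampens signalling inside the cell. In bone marrow, interleukin-1 is known as an inflammatory cytokine that acts on blood stem cells and on the stroma around them.

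The data are single-cell RNA-seq libraries of stromal cells that were sorted one by one from the bones of young and old mice. Methods of the study describe wild-type C57BL/6 mice of both sexes. All cells were sorted without the blood marker CD45 and the red cell marker Ter119. MSC-L were PDGFRα and LepR positive mesenchymal cells of the central marrow. MSC-S were Sca-1 and CD51 positive mesenchymal cells of the endosteum, the inner bone surface. OPr and mOPr were endosteal Sca-1 negative, CD51 positive cells without LepR, OPr lacking PDGFRα and mOPr carrying it. AEC were endosteal and SEC were marrow CD31 positive endothelial cells. The paper defines AEC by high and SEC by low Sca-1. It describes the sequenced endothelial cells by place, however: those of the marrow as mostly SEC by index sorting, and those of the endosteum as dominated by AEC. The labels AEC and SEC may therefore include other endothelial cells. The labels name no mouse for any cell, so each of the 12 groups of age and population is 1 sample and no test was possible.

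Cells with Il1b at 1000 CPM or more (counts per 1000000 counts of nuclear genes) were left out. There were 8 of them, all Old OPr, at 1229 to 29522 CPM, and the highest cell below the threshold, also Old OPr, held 61.5 CPM. The 653 cells used were 53 young and 58 old MSC-L, 59 and 59 MSC-S, 44 and 21 OPr, 26 and 26 mOPr, 84 and 82 AEC, and 70 and 71 SEC. Their total counts ran from 58034 to 1503374 per cell, with a median of 423133. The median per cell was 468565 in young and 357288 in old MSC-L, and 695499 in young and 802551 in old OPr. Library numbers fell into 3 ranges. SEC were all in range 3, the mesenchymal populations were in ranges 1 and 2, and AEC were in all 3.

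The sorted populations carried the markers of their gates, with exceptions that bear on several results. Young OPr had 5 MSC-L markers (Lepr, Cxcl12, Kitl, Adipoq and Ebf3) at a summed 5407 CPM and old OPr had them at 29994 CPM. In mOPr the same sum was 799 CPM in young and 20881 CPM in old cells, while MSC-L held 57033 and 46839 CPM and SEC 6667 and 4210 CPM. Old SEC also held 6 AEC markers at a summed 1107 CPM against 312 CPM in young SEC. Cxcl12, a chemokine that holds blood stem cells in their niche, was the most abundant of the 5 MSC-L markers in each of these groups. The deposited ICGS clusters (groups of cells formed by iterative clustering with guide genes, M1 to M16 for mesenchymal and E1 to E7 for endothelial cells) placed 10 of 21 old OPr and 14 of 26 old mOPr in M1 and M2, which also hold 107 of the 111 MSC-L. Among young cells, 3 of 44 OPr and 2 of 26 mOPr were in M1 and M2. Old OPr cells of M1 and M2 held Lepr at 2902 CPM although the gate was LepR negative. Main values for OPr and mOPr are therefore given with and without these cells.

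Il1r1, the receptor through which interleukin-1 signals, was read in every population and was highest in MSC-L. Its level was 348 CPM in young MSC-L (95% Poisson interval 341 to 356) and 320 CPM in old MSC-L (312 to 328). All such intervals cover counting error only, since reads amplified by PCR without molecular identifiers are not independent molecules, and intervals for shares of cells treat the cells of 1 sample as independent and do not cover differences between mice. Single young MSC-L ran from 0 through a median of 264 to 1400 CPM, and single old MSC-L from 0 through 209 to 2579 CPM, and 2 old cells lay above every young cell. At 10 CPM or more, Il1r1 was detected in 51 of 53 young MSC-L (96.2%, Clopper-Pearson interval 87.0 to 99.5%) and in 50 of 58 old MSC-L (86.2%, 74.6 to 93.9%).

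Outside MSC-L, Il1r1 was detected in a part of each population. Old OPr at 171 CPM and old mOPr at 169 CPM came next, with overlapping intervals. Old MSC-S held 92.2 CPM, young OPr 83.8, young MSC-S 83.6, old SEC 83.3, young mOPr 82.2 (48 without its top cell) and young SEC 75.1 CPM, and among the last 5 of these the neighbours in that order had overlapping intervals. Over all ranges AEC were lowest, at 60.6 CPM in young (51 without its top cell) and 23.7 CPM in old cells. The place of young AEC depended on the library range. In range 1 they were at 119 CPM, above young MSC-S at 109, young OPr at 89.7 and young mOPr at 63.3 CPM. In ranges 2 and 3 they were at 36.8 and 36.6 CPM, below the other young groups there. The share of cells with Il1r1 was 48.6% in young and 45.1% in old SEC, and 28.6% and 28% in AEC. The median over single cells was 0 CPM in AEC of both ages.

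**Figure D1:**
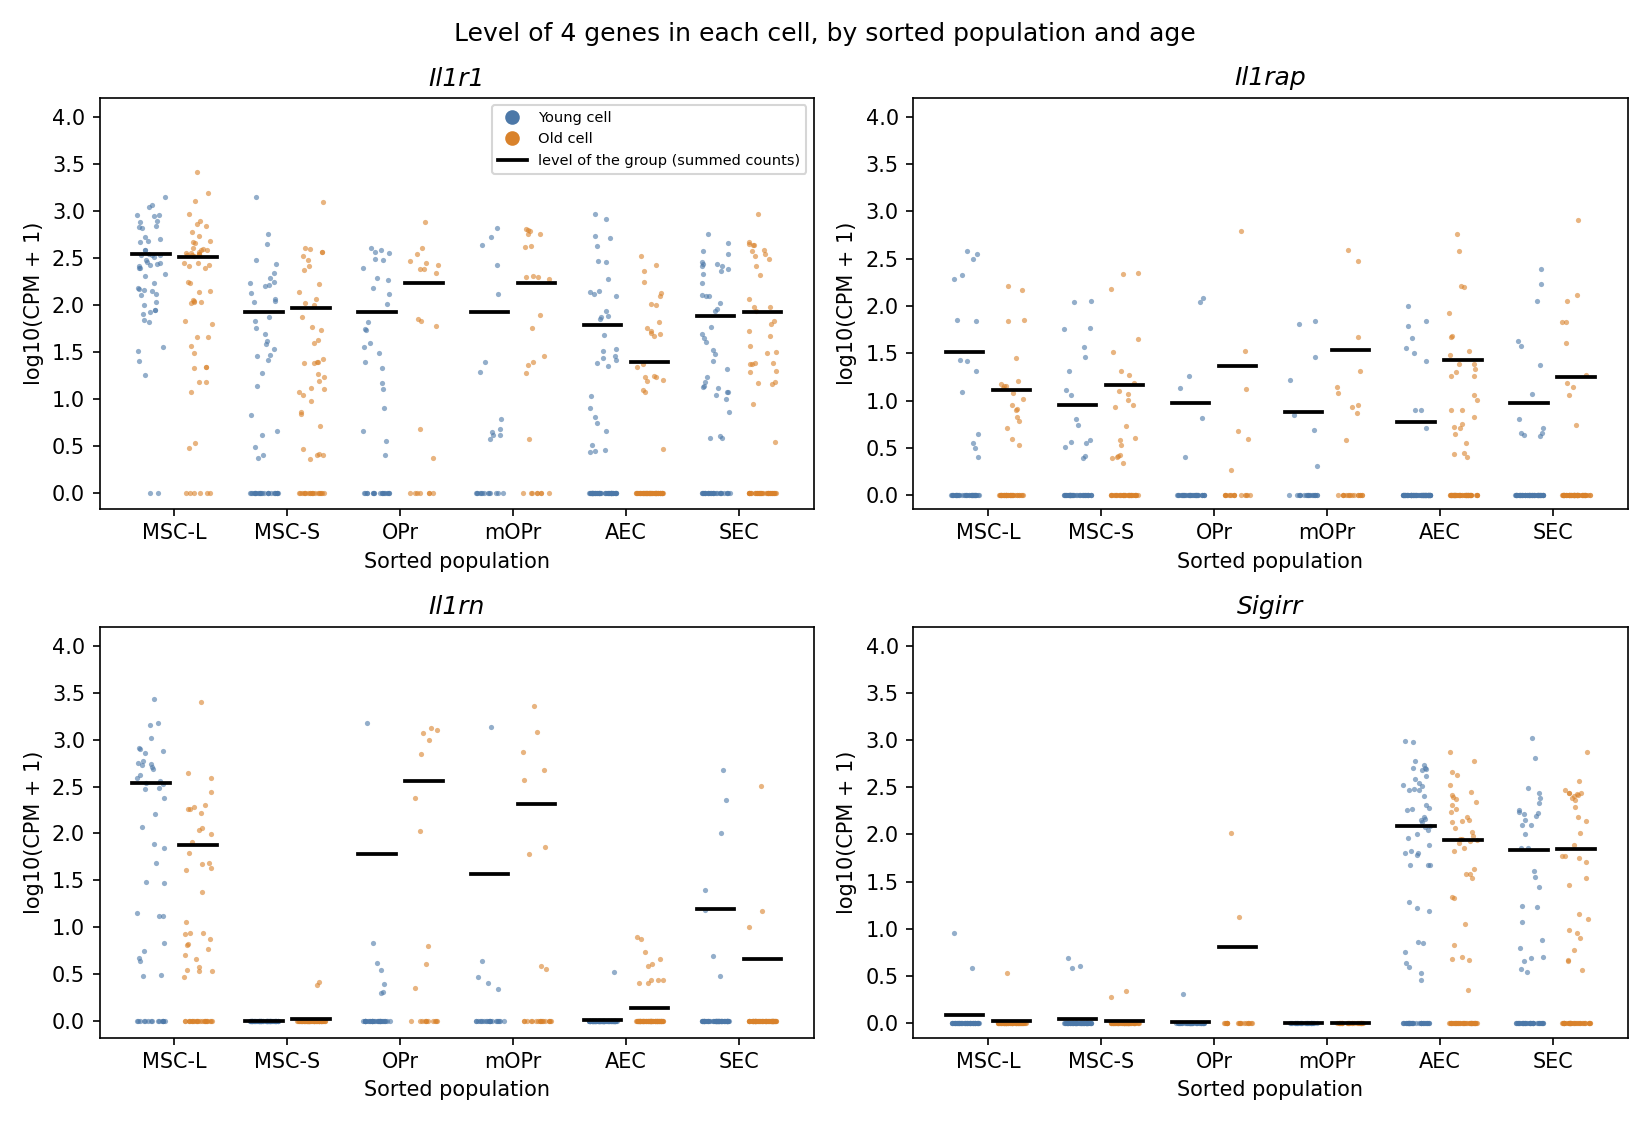
Level of Il1r1, Il1rap, Il1rn and Sigirr in each cell (points, log10 of CPM + 1) by sorted population, young in blue and old in orange; black bars give the level from the summed counts of the group. Il1r1 was detected at 10 CPM or more in 51 of 53 young MSC-L, and Sigirr in AEC and SEC and in 2 of 346 mesenchymal cells.

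With age, Il1r1 changed by less than 2-fold in MSC-L, MSC-S and SEC, with log2 ratios of old over young (on CPM + 1) of -0.12, 0.14 and 0.15. In AEC the old level was lower, with a log2 ratio of -1.32. Over all genes with 100 counts or more that were found in 5 AEC or more, 11.7% were at least 2-fold lower and 9.33% at least 2-fold higher in old cells. The difference in AEC was not even across library numbers: the log2 ratio was -2.56 in range 1, -0.53 in range 2 and -0.54 in range 3. At 10 CPM or more, 24 of 84 young and 23 of 82 old AEC had Il1r1, and at 1 CPM or more 33 and 24, while the median among the cells with it was 105 CPM in young and 49.3 CPM in old AEC. The makeup of AEC also differed by age. Clusters E1, E6 and E7 held 1, 8 and 2 young AEC against 0, 2 and 0 old AEC, and the sinusoidal marker Stab2 was at 217 CPM in young and 9.35 CPM in old AEC. The 1 young AEC of E1 held 187 of the 2112 young Il1r1 counts. Whether this makeup bears on the differences in AEC was not tested.

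In OPr and mOPr the old level of Il1r1 was higher, with log2 ratios of 1.02 and 1.03. In OPr 26.4% of all genes were at least 2-fold higher and 18.4% at least 2-fold lower in old cells, and in mOPr 24.7% and 19.8%, so that a change of this size was common in both. Cells of M1 and M2 held 86.7% of the Il1r1 counts of old OPr and 93.7% of those of old mOPr. Among the cells outside M1 and M2 the direction turned. These cells lay in different clusters by age: all 12 old mOPr were in M5 against 7 of 24 young mOPr, and 7 of the 11 old OPr were in M5 and 1 in M3 against 14 and 15 of 41 young OPr. Whether this makeup bears on the ratios was not tested. There Il1r1 was 79.7 CPM in 41 young and 56.9 CPM in 11 old OPr, and 82.4 CPM in 24 young and 22.3 CPM in 12 old mOPr. Without the top cell of each age these levels were 71.7 and 31.6 CPM in OPr and 46.3 and 10.3 CPM in mOPr.

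Il1rap, the chain that Il1r1 and Il1rl1 share for signalling, was far sparser than Il1r1. Per kilobase of exon sequence, young MSC-L held 54.7 CPM of Il1r1 and 2.81 CPM of Il1rap, and the level of Il1r1 was above that of Il1rap in all 12 groups, from 1.65 times in old AEC to 48.4 times in old MSC-L. The highest levels of Il1rap were 33.6 CPM in old mOPr and 31.9 CPM in young MSC-L, with overlapping intervals (19.5 and 24.2 CPM without the top cell of each group), and the lowest was 4.93 CPM in young AEC. A gene on the opposite strand, Gm20319, overlaps 552 bases of Il1rap exons, and the counting did not use strand.

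Il1rap moved in opposite directions with age in MSC-L and AEC. In MSC-L it was lower in old cells, at 31.9 and 11.8 CPM (log2 ratio -1.36), or 24.2 and 7.65 CPM without the top cell of each age. The number of cells with it was 11 in each age at 10 CPM or more, and 15 young and 20 old at 1 CPM or more. The ratio was -2.81 in range 1 and -0.99 in range 2, and 13.9% of all genes were at least 2-fold higher and 11.5% at least 2-fold lower in old MSC-L. In AEC it was higher in old cells, at 4.93 and 25.7 CPM (log2 ratio 2.17), and it was detected in 7 of 84 young and 16 of 82 old AEC. The ratio in AEC was 1.43, 2.15 and 3.81 in ranges 1, 2 and 3, although 1 old AEC held 40.1% of the counts, without which the old level was 15.7 CPM. In mOPr the log2 ratio was 2.18, and M1 and M2 cells held 95.5% of the old counts. In OPr it was 1.28, but 1 old cell held 91.8% of the counts, and without the top cell of each age the ratio was -0.74. Outside M1 and M2, Il1rap was at 4.07 and 51 CPM in OPr, or 0.82 and 0.68 CPM without the top cell of each age. In mOPr outside M1 and M2 it was at 6.42 CPM in young and 3.21 CPM in old cells.

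Few single cells showed both chains. Of 101 MSC-L with Il1r1, 19 also had Il1rap (18.8%, interval 11.7 to 27.8%), against 3 of 10 MSC-L without Il1r1. In MSC-S, 13 of 58 cells with Il1r1 had Il1rap (22.4%, 12.5 to 35.3%) and 6 of 60 cells without it (10.0%, 3.76 to 20.5%). In AEC the shares were 12.8% and 14.3%, and in SEC 12.1% and 12.0%. The intervals of cells with and without Il1r1 overlapped in every population.

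Il1rn, the natural antagonist of the receptor, was the member with the largest contrast among mesenchymal populations. It was at 341 CPM in young MSC-L (333 to 349) and at 74.1 CPM in old MSC-L (70.3 to 78). In MSC-S it was at 0 counts in 59 young cells and 2 counts in 59 old cells. Single young MSC-L ran from 0 through a median of 47.2 to 2720 CPM and old MSC-L from 0 through 3.19 to 2516 CPM. Apart from the highest old cell, no old MSC-L was above 443 CPM. Il1rn was detected in 32 of 53 young MSC-L (60.4%, 46 to 73.5%) and 20 of 58 old MSC-L (34.5%, 22.5 to 48.1%). After each cell was thinned to 100000 counts, at least 1 count was left in 34 of 53 young and 23 of 56 old cells. The median among cells with Il1rn was 373 CPM in young and 110 CPM in old MSC-L.

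The lower Il1rn of old MSC-L had a log2 ratio of -2.19 (counting interval of the ratio without pseudocount -2.28 to -2.12), and it was -1.94 in range 1 and -2.31 in range 2. The clusters of MSC-L differed by age, with 39 young and 33 old cells in M1 and 12 and 23 in M2. Whether this makeup bears on the differences in MSC-L was not tested. In OPr and mOPr the direction of Il1rn was the opposite. Il1rn was at 59.6 CPM in young and 363 CPM in old OPr (log2 ratio 2.59), and at 36.4 and 203 CPM in mOPr (log2 ratio 2.45). By library range the ratios were 2.51 and 6.15 in OPr, with old levels of 783 and 95.5 CPM in ranges 1 and 2, and 8.24 and 1.01 in mOPr, with old levels of 302 and 142 CPM. The young values each came from 1 cell, which held 99.2% of the counts in OPr and 99.1% in mOPr, and both of those cells were in M1 or M2. The old values came from 7 cells in each population, and in old mOPr 1 cell held 39% of the counts, without which the level was 128 CPM.

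Nearly every Il1rn count of the mesenchymal populations lay in M1 and M2, whatever gate the cell came through. Il1rn is among the guide genes by which the mesenchymal clusters were formed, so its presence there is a description and no test. M1 and M2 cells held 99.8% of the Il1rn counts of old OPr and all but 1 of the 2534 counts of old mOPr. In these clusters the level was 353 CPM in 51 young MSC-L and 76 CPM in 56 old MSC-L, but 605 CPM in 10 old OPr and 385 CPM in 14 old mOPr (252 CPM without the top cell). The 3 young OPr of these clusters held 572 CPM and the 2 young mOPr 733 CPM, with Il1rn detected in 1 cell of each. Among old cells of the same clusters, the level was thus higher in those from the LepR negative endosteal gates than in those from the LepR positive marrow gate. Their mix of clusters also differed, with 3 of 10 old OPr, 10 of 14 old mOPr and 23 of 56 old MSC-L in M2. Whether gate or mix bears on the difference was not tested. Counted over all cells of M1 and M2, the log2 ratio of old over young was -0.49. In cluster M1 alone Il1rn was at 456 CPM in 42 young and 321 CPM in 44 old cells, and detected in 31 and 22 of them. In M2 it was at 114 CPM in 14 young and 209 CPM in 36 old cells, and without the top cell of each age at 9.97 and 130 CPM.

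**Figure D2:**
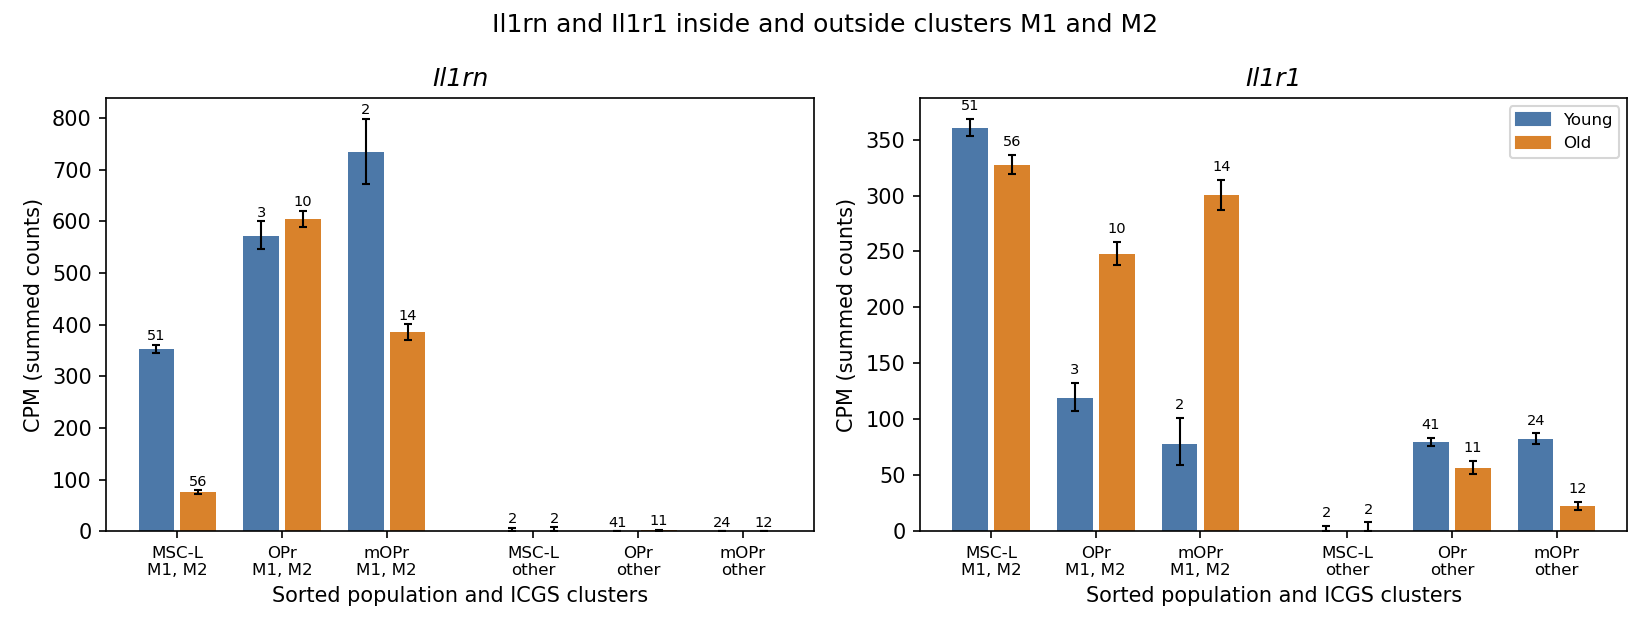
Levels of Il1rn and Il1r1 (CPM from summed counts, bars) in MSC-L, OPr and mOPr inside and outside clusters M1 and M2, young in blue and old in orange, with 95% Poisson intervals that cover counting error only and the number of cells above each bar. Il1rn was at 605 CPM in 10 old OPr of M1 and M2 and at 76 CPM in 56 old MSC-L of the same clusters; the young OPr and mOPr bars there rest on 3 and 2 cells.

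The balance of antagonist and receptor shifted with these values. Per kilobase, the level of Il1rn was 1.13 times that of Il1r1 in young MSC-L and 0.267 times in old MSC-L. In OPr the ratio was 0.818 in young and 2.44 in old cells, and in mOPr 0.509 and 1.38. Without the top Il1rn cell of each group they were 0.00655 and 2.15 in OPr and 0.00500 and 0.852 in mOPr, and in young OPr none of the 22 cells with Il1r1 had Il1rn. The values rest on M1 and M2 cells, since outside those clusters Il1rn was at 0.30 and 1.71 CPM in OPr and at 0.36 and 0.17 CPM in mOPr. In single cells, 32 of 51 young MSC-L with Il1r1 also had Il1rn (62.7%, 48.1 to 75.9%), against 18 of 50 old ones (36%, 22.9 to 50.8%).

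In SEC, Il1rn was at 14.7 CPM in young and 3.57 CPM in old cells (log2 ratio -1.78), of which 1 young cell held 62.4% and 1 old cell 94.6%, beside 7.56% of all genes at least 2-fold lower and 13.1% at least 2-fold higher. Of these counts, 321 of 322 in young and 73 of 74 in old SEC lay in cluster E1. The 14 cells of E1 held the 5 MSC-L markers at 35273 CPM together with the 5 endothelial markers at 1770 CPM, against 1301 and 4272 CPM in the 105 cells of E7, the main SEC cluster. Outside E1, SEC of each age held 1 count of Il1rn. E1 also held 507 of the 1727 Il1r1 counts of old SEC, and the Il1r1 level of the other SEC was 72.2 CPM in young and 62.9 CPM in old cells. Of SEC, 59 of 70 young and 44 of 71 old cells were in E7, 2 and 12 in E6, 9 and 4 in E1, and 0 and 10 in E3 to E5. Whether this makeup bears on the differences in SEC was not tested. In AEC, Il1rn was at 0.03 CPM in young and 0.40 CPM in old cells.

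Il1r2, the decoy receptor, was near the detection limit in the cells used. It reached 5.77 CPM in old MSC-S, from 226 counts of which 1 cell held 67.3%, and was at 0 counts in young MSC-S. The old level was at least 66.4-fold higher against a floor of 3 counts over the young group, but it rested on 2 of 59 cells, 1 in each library range. Of all genes, 8.65% were at least 2-fold higher and 11.1% at least 2-fold lower in old MSC-S. The other 11 groups held at most 1.44 CPM.

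Sigirr, which restrains signalling by the interleukin-1 receptor and by Toll-like receptors, was the endothelial member of the family. AEC and SEC held 10182 of its 10281 counts, at 90.6 CPM (88.8 to 92.4) against 0.53 CPM (0.43 to 0.64) in the 4 mesenchymal populations. It was detected in 122 of 307 endothelial cells and 2 of 346 mesenchymal cells, and 1 cell held 98.8% of the 86 counts of old OPr. Among endothelial cells it was highest in young AEC at 122 CPM (118 to 126), followed by old AEC at 85.7, old SEC at 69.9 and young SEC at 67.9 CPM, and the last pair had overlapping intervals. In library range 3 alone, which holds all SEC, young AEC were at 127 CPM and old AEC at 50.1 CPM, below SEC of both ages. Single cells ran from 0 to 966 CPM in young AEC with a median of 6.23 CPM, and the median was 0 CPM in the other 3 endothelial groups.

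With age, Sigirr differed by less than 2-fold in AEC (log2 ratio -0.50) and in SEC (0.04). In AEC the ratio was 0.20 in range 1, -0.62 in range 2 and -1.32 in range 3. Among clusters of at least 10 cells it was at 47.8 CPM in E1, 106 in E3, 100 in E4, 132 in E5, 84.1 in E6 and 73 in E7. The 8 cells of E2 gave 0 counts. Per kilobase, Sigirr stood above Il1r1 in AEC by 4.21 times in young and 7.56 times in old cells, and in SEC by 1.89 and 1.75 times. Of 47 AEC with Il1r1, 20 also had Sigirr (42.6%, 28.3 to 57.8%), and of 119 without Il1r1, 55 had it (46.2%, 37 to 55.6%).

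Il33 is a nuclear cytokine released from damaged cells, and Il1rl1 is the receptor through which it signals together with Il1rap. Both were read mainly in MSC-S. Il33 was at 55.9 CPM in young and 22.4 CPM in old MSC-S, each time from 7 of 59 cells with 10 CPM or more. The log2 ratio of -1.28 was not stable between library ranges, at 1.44 in range 1 and -5.36 in range 2. The clusters of MSC-S also differed by age, with 13 young and 10 old cells in M12, 14 and 21 in M16, 5 and 0 in M15 and 0 and 10 in M9, and whether this bears on the differences in MSC-S was not tested. Old mOPr were the other group with Il33, at 37.6 CPM (22.6 without the top cell) against 0.07 CPM in young mOPr, where 1 count was read. Outside old mOPr and MSC-S, no group had more than 4 counts. The 469 counts of old mOPr outside M1 and M2 came from cells of which 4 reached 10 CPM, and the higher level was seen in both ranges (log2 ratios 6.07 and 3.91). It rested on few cells, since 3 of 13 old mOPr in range 1 and 1 of 13 in range 2 reached 10 CPM. Among clusters of at least 10 cells, Il33 was highest in M12 at 113 CPM and in M7 at 73 CPM. The 5 cells of M6 held it at 117 CPM, with 2 of them at 10 CPM or more.

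Il1rl1 was at 21.9 CPM in young and 12.6 CPM in old MSC-S, and below 1 CPM in the other groups. A single young cell held 86.4% of the young counts, and without the top cell of each age the log2 ratio went from -0.75 to 1.06. It was detected in 5 young and 4 old MSC-S, all in range 2. Il33 was detected in 1 of these 9 cells and in 13 of the 109 MSC-S without Il1rl1, shares of 11.1% and 11.9%. Of the 36 cells of M16, 6 had Il1rl1.

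Il18, a cytokine made as an inactive precursor, was low throughout, at 0 to 3.54 CPM, and was detected in 14 of the 653 cells. No group had it in more than 5 cells, and its differences between ages rested on single cells. In old MSC-L, 1 cell held 94.2% of the counts.

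Counted together, 18 of the 48 pairs of member and population were past 2-fold between ages, 12 higher and 6 lower in old cells, and in 9 pairs both ages were at 3 counts or fewer. Of the pairs that passed the filter on low counts, 8 were higher and 5 lower, where 8.65 to 26.4% of all genes of a population were higher and 7.56 to 19.8% lower. Of the 8 higher pairs, 3 were in OPr and 4 in mOPr, where 26.4% and 24.7% of all genes were higher. All 5 lower pairs were in the other populations. Il33 in mOPr passed the filter through its old cells. The filter of 100 counts in 5 cells was passed by 3 members in MSC-L, 5 in MSC-S, 3 in OPr, 4 in mOPr, 3 in AEC and 4 in SEC.

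**Figure D3:**
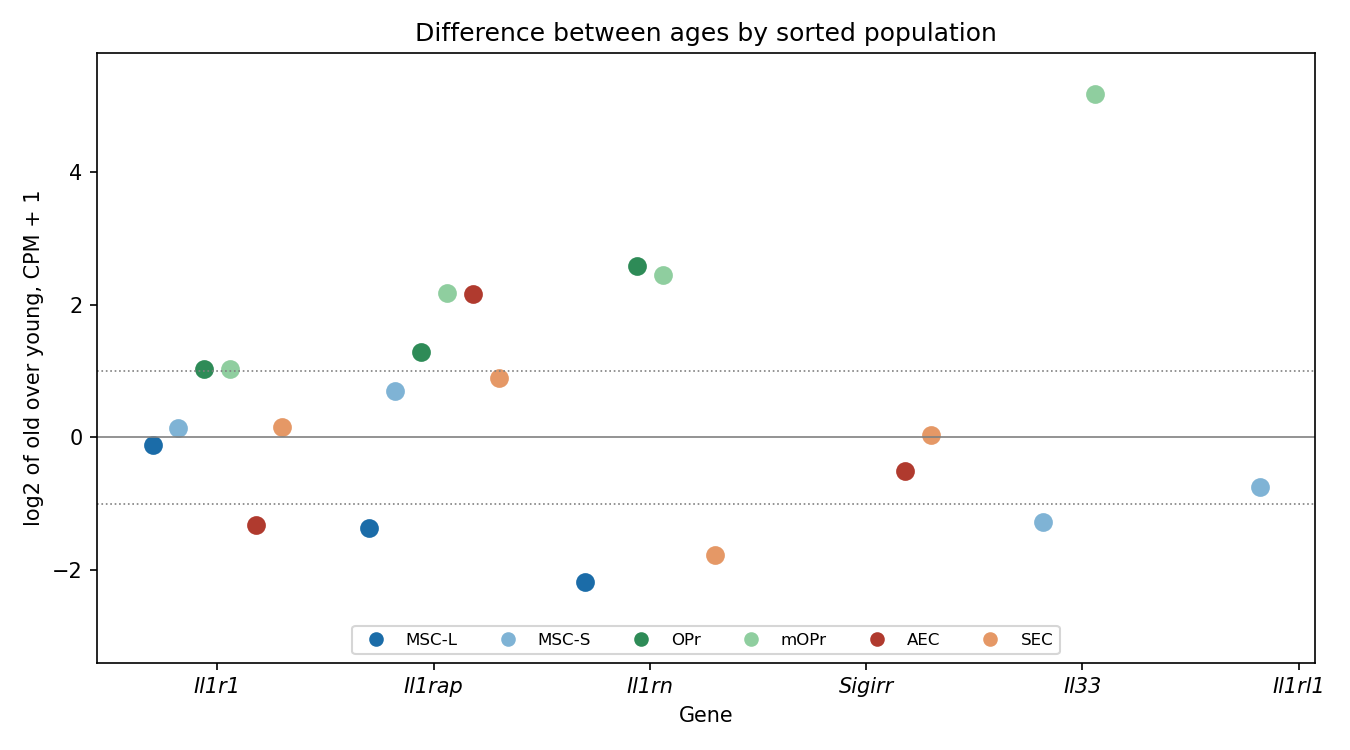
Difference between ages (log2 of old over young on CPM + 1) for 6 of the 8 members. Each member has 1 point for each sorted population in which it passed the filter on low counts, and dotted lines mark 2-fold. Not every member that passed in a population is shown. Il1rn was at -2.19 in MSC-L and 2.59 in OPr, and Il33 at 5.18 in mOPr.

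The 8 genes lie at 6 places of the mouse genome (build GRCm38, GENCODE annotation). Il1rap is at chr16:26581704-26730117, Sigirr at chr7:141091175-141100572 and Il18 at chr9:50554827-50581840. On chromosome 1, Il1r2 (chr1:40074079-40125231), Il1r1 (chr1:40225080-40317257) and Il1rl1 (chr1:40429570-40465415) lie in this order on the plus strand, with Il1rl2 between the last pair. Over the 12 groups, log2(CPM + 1) of Il1r1 had a Pearson correlation of -0.10 with Il1rl1 and 0.17 with Il1r2, and Il1r2 and Il1rl1 had 0.34. The highest correlation among members was 0.74, of Il1r1 with Il1rn, which lies on chromosome 2 (chr2:24336853-24351494), and the next was 0.72, of Il1rl1 with Il33 on chromosome 19 (chr19:29925114-29960718). The groups share populations, ages and library ranges, so these values describe the 12 groups only.

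Among 12356 other genes with enough counts, those most like Il1r1 over the 12 groups were Adcy2 (Pearson r = 0.956), an adenylate cyclase, Dvl3 (0.951), a Wnt signalling adaptor, and Pknox2 (0.95). Among those most like Il1rn were Podnl1 (0.957) and Mab21l2 (0.946). Most like Sigirr were Tmem252 (0.997), Dll1 (0.992), a Notch ligand, and Rasip1 (0.989), a regulator of endothelial junctions and lumen formation. For Il1rap they were Isoc1, Lrp3 and Qrich1 (0.860, 0.851 and 0.851), for Il33 Gpc3, Ccl7 and Gnpnat1 (0.947, 0.917 and 0.904), and for Il1rl1 Sv2c, Sdk1 and 1700019D03Rik (0.941, 0.920 and 0.912). Il18 was most like Slc1a3, Pole2 and Il1rl2 (0.907, 0.901 and 0.897), and Il1r2 like Rsl1d1, Nsg1 and Figf (0.805, 0.797 and 0.780). These choices depend on the measure: of the 24 genes with the highest Pearson correlation, 3 were also among the highest by Spearman correlation, and none of those for Il1r1, Il1rn or Sigirr.

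Of 12 other ligands and receptors of the family, 3 passed the filter in MSC-L and OPr, 2 in MSC-S, mOPr and SEC, and 1 in AEC. In MSC-L 1 was higher in old cells, in MSC-S 1, in OPr 2 with 1 lower, in mOPr 2, in SEC 1 was lower, and in AEC none was past 2-fold. Of all genes, 8.65 to 26.4% were higher and 7.56 to 19.8% lower in old cells of a population. Il1rl2, the receptor for interleukin-36, was highest in old MSC-L at 50 CPM and not past 2-fold there. It was at 12.7 CPM in young and 3.62 CPM in old SEC (log2 ratio -1.57), in 12 and 6 cells, and at 7.60 and 21.7 CPM in OPr (1.40), where 1 young cell held 89.2% of the young counts. In mOPr it was at 1.03 and 11.4 CPM (2.61), in 1 and 3 cells. Outside M1 and M2 it did not pass the filter in OPr or mOPr. Il18r1, the chain that binds Il18, was at 12.8 CPM in 7 of 44 young OPr and gave 1 count in old OPr (-3.70, and below 0 in both ranges). Il1rapl1 was at 2.85 and 18.1 CPM in MSC-L (2.31), in 2 and 3 cells. Il18bp, a secreted protein that binds Il18, was higher in old MSC-S, OPr and mOPr (1.29, 1.79 and 1.16), but the 2 ranges had opposite signs in each of them. In mOPr outside M1 and M2 it was lower in old cells, at 12.2 and 1.52 CPM (-2.39), and in OPr it did not pass the filter there.

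Signalling genes downstream of the receptors were read in all populations. Of 21 such genes, from Myd88 and the Irak kinases to NF-κB and its inhibitors, all 21 passed the filter in MSC-L, MSC-S and OPr and 20 in mOPr, AEC and SEC. In MSC-L 1 was higher and 1 lower in old cells, in MSC-S 2 and 2, in AEC 0 and 2, and in SEC 1 and 2, where 8.65 to 13.9% of all genes were higher and 7.56 to 11.7% lower. In OPr 4 were higher and none lower, beside 26.4% and 18.4% of all genes, and in mOPr 3 were higher and 4 lower, beside 24.7% and 19.8%. Outside M1 and M2 the count rose to 9 higher and 1 lower of 20 in OPr, with a median log2 ratio of 0.80, and to 5 higher and 3 lower of 19 in mOPr, with a median of 0.23. Of all genes outside M1 and M2, 23.7% were higher and 28.1% lower in old OPr, and 21.8% and 32.6% in old mOPr. The adaptor Myd88 was at 43.8 CPM in young and 207 CPM in old mOPr (log2 ratio 2.21), and it was at 46.1 and 328 CPM among mOPr outside M1 and M2. Map3k7, the kinase TAK1, was at 62.6 CPM in young and 24.7 CPM in old SEC (-1.31), while Tollip, an adaptor that restrains the Irak kinases, was at 28.5 and 85.9 CPM (1.56). In MSC-S the NF-κB kinase subunits moved apart, with Ikbkb at 31 and 66.4 CPM (1.08) and Ikbkg at 57.5 and 19.6 CPM (-1.51).

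Among genes that process interleukin-1 family ligands, Casp1 and Casp4 were higher in old OPr and mOPr. Of 9 such genes, 4 passed the filter in MSC-L, OPr and mOPr, 3 in MSC-S, 6 in AEC and 7 in SEC. In old OPr 3 of 4 were higher beside 26.4% of all genes, and in old mOPr 2 of 4 beside 24.7%. Outside M1 and M2, 2 passed in each, of which 1, Casp4, was higher. Casp1, the protease that matures interleukin-1β and Il18, was at 0 counts in young and 55.5 CPM in old OPr, and at 2.47 and 71.8 CPM in mOPr (log2 ratio 4.39). In OPr it passed the filter through old cells alone. Casp4, which senses bacterial lipopolysaccharide in the cytosol, was at 9.92 and 138 CPM in OPr (3.67), 3.98 and 60.6 CPM in mOPr (3.63) and 24.5 and 74.9 CPM in MSC-L (1.57). Outside M1 and M2, Casp4 was at 7.87 and 254 CPM in OPr, detected in 2 old cells, and at 4.18 and 50.9 CPM in mOPr, while Casp1 did not pass the filter there. The inflammasome adaptor Pycard moved in opposite directions, at 24.6 and 58.9 CPM in MSC-L (1.23, but -1.08 in range 1) and at 57.1 and 21.2 CPM in AEC (-1.39, and below 0 in all 3 ranges). In MSC-L the 15 blood cell markers summed to 37.6 CPM in young and 294 CPM in old cells. Whether Casp4 and Pycard move with them was not tested. In AEC Aim2 was higher and in SEC Prtn3 (1.14 and 1.28). Of the genes that passed the filter, none but Aim2 and Pycard was past 2-fold in AEC, none but Prtn3 in SEC, and none in MSC-S.

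Many genes known to respond to interleukin-1 differed with age in the endosteal progenitors. Of 27 such genes, 15 passed the filter in OPr and 17 in mOPr. In old OPr 10 were higher and 2 lower (26.4% and 18.4% of all genes), with a median log2 ratio of 1.97 beside 0.22 over all genes. In old mOPr 9 were higher and 1 lower (24.7% and 19.8% of all genes), with a median of 1.38 beside 0.11. The filter pooled both ages, so Ccl2 and Cxcl5 in mOPr passed through old cells and Mmp3 in OPr through young cells. Such genes could be called in 1 direction only, in the list and among all genes, and neither counts nor medians were tested. Ccl2, a chemokine for monocytes, was at 0 counts in young mOPr and 336 CPM in old, in 7 of 26 cells. Ccl7 was at 16.6 and 282 CPM there (log2 ratio 4.01), and Cxcl5 at 0.07 and 168 CPM (7.30). Mmp3, a matrix protease, went the other way, from 973 to 0.48 CPM in mOPr (-9.36) and from 123 CPM to 0 counts in OPr. In OPr, Cxcl1 was at 0.55 and 781 CPM (8.98), of which 1 old cell held 79.3%, and Mmp13 at 4.30 and 851 CPM (7.33), of which 1 old cell held 86.7%. Tnfaip3, an inhibitor of NF-κB that NF-κB itself induces, was at 2.25 and 51.9 CPM in OPr (4.03, but -0.21 in range 1). Markers of other cell types also differed with age in these groups. The pericyte and smooth muscle markers summed to 79.2 and 2299 CPM in OPr and to 151 and 1710 CPM in mOPr. The cartilage markers summed to 27551 and 1151 CPM in OPr and to 2215 and 76.2 CPM in mOPr. Whether the responsive genes move with these markers was not tested.

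Shifts were also seen outside M1 and M2, among cells whose clusters differed by age, with all 12 old but 7 of 24 young mOPr in M5. Without M1 and M2, 8 of 14 responsive genes were higher and 2 lower in 11 old against 41 young OPr (23.7% and 28.1% of all genes), and 8 of 15 were higher and 1 lower in 12 old against 24 young mOPr (21.8% and 32.6% of all genes). The medians were 2.86 beside 0.00 over all genes in OPr and 1.36 beside -0.18 in mOPr. There Ccl2 was at 0 counts in young and 374 CPM in old mOPr, and Ccl7 at 17.4 and 381 CPM, while Cxcl5 did not pass the filter. In OPr, Cxcl1 was at 0.61 and 1930 CPM and Mmp13 at 0.23 and 144 CPM, and Tnfaip3 was at 2.51 and 92.9 CPM outside M1 and M2. Of the 11 old OPr there, Cxcl1 and Tnfaip3 were each detected in 3 cells and Mmp13 in 1.

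In MSC-L 16 responsive genes passed, 5 of them higher and 3 lower in old cells (13.9% and 11.5% of all genes), with a median of 0.30 beside 0.01. Cxcl5 was at 0.57 CPM in young and 26.8 CPM in old MSC-L (log2 ratio 4.15, and positive in both ranges), and Cxcl1 at 51.9 and 14.2 CPM (-1.80), of which 1 cell held 94.8% of the young and 1 held 83% of the old counts. In MSC-S 18 passed, 5 higher and 2 lower (8.65% and 11.1% of all genes), with a median of 0.52 beside -0.06. Il6, a cytokine that stromal cells release after interleukin-1, was at 32.5 and 307 CPM in MSC-S (3.20), detected in 12 young and 23 old cells, with ratios of 4.33 in range 1 and 2.80 in range 2. In AEC 16 passed, 1 higher and 3 lower (9.33% and 11.7% of all genes). Vcam1, an adhesion molecule, was at 235 and 92.9 CPM in AEC (-1.33, and below 0 in all 3 ranges), beside the fall of Stab2, and at 3194 CPM in young SEC. In AEC Has1 was at 4.39 and 72.7 CPM (3.77), of which 1 old cell held 82.3%. In SEC 12 passed, 3 higher and none lower (13.1% and 7.56% of all genes), led by Tnfaip3 at 35.3 and 140 CPM (1.96), of which 1 old cell held 67.8%.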

How the data were processed

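The authors sorted single cells into plates, made full-length cDNA without molecular identifiers, aligned reads with GSNAP to GRCm38.p4 and used HTSeq for unstranded gene counts. The deposited values are raw read counts per gene symbol, after the authors removed cells with few reads or a high mitochondrial share. Of 46078 entries, 270 repeated a symbol and were summed, which gave 45771 nuclear and 37 mitochondrial genes. CPM, computed from the deposited counts, used the nuclear gene counts summed over the cells of a group. Cells with Il1b at 1000 CPM or more were left out. Intervals were exact (95%): Poisson for levels, Clopper-Pearson for shares of cells, conditional binomial for ratios. Ratios of old over young used a pseudocount of 1 CPM and a threshold of 2-fold. The background was all genes of 100 counts or more that were found in 5 cells or more of the population. Both ages were pooled for this filter, so a gene could pass through the age in which it was high. Beside a share of 0 stands a limit of 3 cells. Columns that could not be mapped to a group numbered 0.

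Levels per kilobase used exon lengths of GENCODE M21. Other pathway genes came from 4 lists with 69 genes in all. Up to 4 genes of each list and population with the largest differences past 2-fold could be named, and for each member the 3 genes with the highest Pearson correlation among those of 1000 counts or more that reached 10 CPM in 5% of cells or more. The members and lists were chosen with earlier results of these data known. Ranges of library numbers were separated where neighbouring numbers differed by over 500, and a range was used alone with at least 5 cells of each age. The computation was tested on simulated data. It ran in Python 3.11.15 with scipy 1.17.1 for intervals, matplotlib 3.10.9 for figures, pandas 2.3.3 for tables and numpy 2.4.6. Alternatives covered the level, normalization, thinning, the pseudocount, the fold, the library ranges, the clusters, the Il1b rule and single cells.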

Additional observations from a re-analysis of the deposited data

Results flagged for a closer look

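The 8 Old OPr cells left out for their Il1b, which the comparisons do not use, held Il1r2 far above the cells used. Il1r2 was at 5102 CPM in them (5041 to 5163), from 1330 to 17044 CPM in single cells and 2867 CPM without the highest, against at most 5.77 CPM in any group used, and they held 99.9% of the Il1r2 counts of Old OPr. Il1rn was at 2443 CPM, in 6 of the 8 cells, against 363 CPM in the Old OPr used, but 1 cell held 70.1% of the counts, the level without it was 841 CPM, and the median cell was at 184 CPM. Il18 was at 10.1 CPM, from 54 counts of which 1 cell held 85.2%. Il1r1 gave 1 count and Sigirr 1 count in all 8 cells. Each of them carried 11 to 14 of 15 blood cell markers at 10 CPM or more.

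Age differences pointed in opposite directions between populations for 3 members, with the same sign in each library range used; none of these differences between populations was tested. Il1rn had a log2 ratio of old over young of -2.19 in MSC-L, 2.59 in OPr and 2.45 in mOPr. Il1r1 was at 1.02 in OPr and 1.03 in mOPr but -1.32 in AEC. Il1rap was at -1.36 in MSC-L, 2.18 in mOPr and 2.17 in AEC. Old mOPr had 14 of 26 cells in M1 and M2 and young mOPr 2 of 26. Without those cells the ratios in mOPr were -0.22 for Il1rn, -1.84 for Il1r1 and -0.82 for Il1rap. In OPr without M1 and M2 cells, Il1r1 was at 79.7 CPM in young and 56.9 CPM in old cells. Il1rn was at 0.30 and 1.71 CPM there.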

How the results depend on the processing

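No paired analysis was possible because the labels name no mouse. Of the 18 ratios past 2-fold, all 18 kept their direction and 15, 14, 15 and 18 stayed past 2-fold with the mean CPM of single cells, size factors by the median of ratios, thinning to 100000 counts and a pseudocount of 0.1 CPM. All 18 also kept their direction with all cells kept (17 past 2-fold) and with 3 more cells of at least 7 blood markers left out (18). In library range 1 alone 13 of 16 kept their direction and 11 were past 2-fold; Il1rap in OPr went to -3.19, Il33 in MSC-S to 1.44 and Il18 in MSC-L to -1.53. In range 2 all 16 and in range 3 all 4 kept it, 12 and 3 past 2-fold. With ICGS identity groups in place of sorted populations 11 of 13 kept it, 5 past 2-fold; Il1r1 in OPr went to -1.74 and Il1rn in SEC to 0.032. When the top cell of each age was left out 16 of 18 kept it and 12 were past 2-fold; Il1rap in OPr went to -0.74 and Il18 in MSC-L to -0.066. In an alternative chosen after seeing the data, OPr and mOPr without M1 and M2 cells and AEC and SEC without E1 cells, 9 of 13 kept it, 6 past 2-fold; Il1r1 went to -0.48 in OPr and -1.84 in mOPr, Il1rap in mOPr to -0.82 and Il1rn in mOPr to -0.22. The cause was not tested.

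The number of members past 2-fold, for MSC-L and MSC-S, then OPr and mOPr, then AEC and SEC, was 3, 2, 4, 5, 2 and 2. Of all genes that passed the filter, 8.65 to 26.4% of a population were at least 2-fold higher and 7.56 to 19.8% lower in old cells. These shares were highest in OPr (26.4% and 18.4%) and mOPr (24.7% and 19.8%). Shares of all genes at 4-fold and 1.5-fold are not given, so the counts at those folds describe the thresholds only. At 4-fold it was 1, 1, 2, 3, 1 and 0, and at 1.5-fold it was 4 in MSC-S and 4 in AEC. With identity groups it was 1 in MSC-L, MSC-S, AEC and SEC; with a pseudocount of 0.1 CPM 6 in MSC-L and 6 in AEC; with size factors 1 in MSC-S and 1 in SEC; with means over cells, with thinning and without the top cells 1 in SEC, and without the top cells 1 in OPr. In AEC it was 4 in range 1 and 1 in range 2. Without M1, M2 and E1 cells it was 2 in mOPr and 0 in SEC. Other pathway genes past 2-fold numbered 13, 12, 22, 21, 8 and 8. At 4-fold they were 5, 4, 13, 12, 3 and 0, and at 1.5-fold 25 in MSC-L, 22 in MSC-S, 16 in AEC and 14 in SEC. Without the filter they were 16 in SEC. Of 64 shares of cells, 11 left their interval at 1 CPM and 2 after thinning.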

Other observations

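The marker lists also differed between ages within a gate. In young OPr the 3 cartilage markers Sox9, Acan and Col2a1 summed to 27551 CPM, led by Col2a1 at 23589 CPM, against 1151 CPM in old OPr. In mOPr the same sum was 2215 CPM in young and 76.2 CPM in old cells. The 4 pericyte and smooth muscle markers went the other way, from 79.2 to 2299 CPM in OPr and from 151 to 1710 CPM in mOPr, led in both old groups by Acta2.

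Old SEC held 5 of the 6 mast cell and basophil markers, at a summed 760 CPM, led by Mcpt8 at 392 CPM, against 6.07 CPM in young SEC. The 15 blood cell markers summed to 579 CPM in old and 109 CPM in young SEC, to 294 and 37.6 CPM in MSC-L, where Plek led in old cells at 137 CPM, and to 308 and 127 CPM in AEC, where Cd74 led. Whether the members in these populations move with the markers was not tested.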
